A study of Danio rerio with 12 samples.

Results

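The response of gcn2-deficient zebrafish larvae to low oxygen was measured by comparing 3 RNA libraries from gcn2 knockout larvae kept in hypoxia for 8 hours with 3 libraries from gcn2 knockout larvae kept in normoxia. These are 6 of the 12 libraries of the study, whose other 6 come from wild-type larvae under the same pair of oxygen conditions. All larvae were 3 days past fertilization and were taken whole, raised at 28.5 °C, and the labels call the libraries biological replicates, without saying how many larvae went into each or at what oxygen level hypoxia was held. The allele of the knockout is not given in the sources used here, and knockout and wild-type larvae may differ in other inherited variants. The genotypes are therefore compared below mainly through their responses, although levels are also set side by side for eif2ak4 and some other genes. Polyadenylated RNA was measured, and the deposited values are FPKM (fragments scaled to gene length and to a total for each library). All genes with at least 1 FPKM in at least 3 of the 12 libraries were tested, which gave 21480 of 35004 genes.

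Gcn2 is a protein kinase that senses uncharged transfer RNA when amino acids run short and phosphorylates the translation factor eIF2, which slows protein synthesis while favouring translation of the transcription factor Atf4. Low oxygen acts mainly through hypoxia-inducible factors (HIF), whose alpha subunits are hydroxylated and destroyed while oxygen is plentiful. Stabilised HIF raises genes for glycolysis, blood vessel growth and red cell production, and cells short of oxygen commonly save energy by slowing growth, division and protein synthesis.

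The transcript of the targeted gene, eif2ak4 (ENSDARG00000104276, GRCz11 scaffold KN150326.1, 26197 to 105474), read 1.66, 1.85 and 1.70 FPKM in normoxic knockout larvae and 1.55, 1.95 and 1.52 FPKM in the hypoxic ones. The wild-type libraries held 3.63 to 3.91 FPKM in normoxia and 4.18 to 4.25 FPKM in hypoxia, so the knockout mean was 45.8% of the wild-type mean in normoxia and 39.6% in hypoxia. Every knockout library lay below every wild-type library. The oxygen groups of the knockout overlapped for this gene, with a log2 fold change of -0.04 ± 0.08 (SE, limma adjusted p = 0.739). Reads recovered from the values numbered 16282449 to 16524789 per normoxic knockout library and 15668848 to 16651244 per hypoxic one. The library total that the FPKM imply was 1.060 to 1.068 times the recovered reads in normoxic knockout libraries. In hypoxic ones it was 0.945 to 0.980 times, so the scaling differs between the oxygen groups, and which total was used is not stated. On the first principal component of all 12 libraries (42.6% of the variance), the knockout libraries of each oxygen group lay close together. The normoxic knockout libraries lay between -19.52 and -17.64 and the hypoxic ones between 34.78 and 38.90.

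Hypoxia changed 9451 of the 21480 genes in knockout larvae (44.0%), of which 4684 were higher (21.8% of the genes tested) and 4767 lower (22.2%). The shares 21.8% and 22.2% are the background for the counts of list members below that rest on FPKM, and not for those after TPM scaling. Better expressed genes passed more often: with a filter of FPKM at least 5, 3587 of 11982 genes were higher and 3356 lower. A log2 fold change here is the difference of the group means of log2(FPKM + 1), which understates the change of genes near or below 1 FPKM. Its error is the standard error from limma. A gene is said to rise or fall where its Benjamini-Hochberg adjusted p over all 21480 genes is under 0.05. Genes named for the size of their change were chosen with groups that do not overlap, so that trait follows from the choice. Most changes were small: 358 genes rose and 187 fell by 1 or more, and the median over all genes was 0.00. Values rescaled to TPM, which sum to the same total in each library, shifted that median to -0.12 and the calls to 2787 higher and 7239 lower, so TPM counts stand beside a list below where they differ from the FPKM counts by over 1.5 times or move the split by over 10 percentage points. The background for TPM counts is thus 2787 higher and 7239 lower of 21480 genes, with far more genes lower. The larvae were not dissected, so fewer cells of a type and less RNA per cell cannot be told apart in any of these values.

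**Figure D1:**
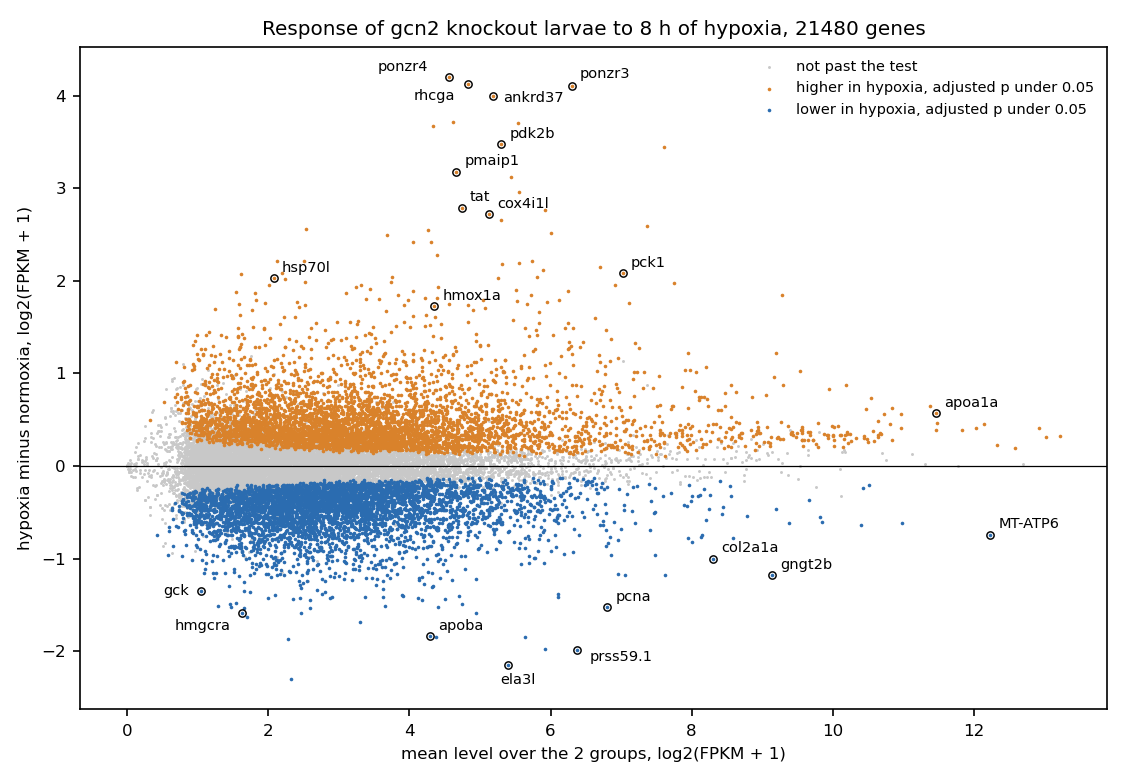
Each point is 1 of 21480 genes in gcn2 knockout larvae, with the mean level over normoxia and hypoxia on the x axis and the log2 fold change in hypoxia on the y axis, both on the log2(FPKM + 1) scale. Orange and blue points passed the test as higher (4684) and lower (4767), grey points did not, and circled genes are named; the rises reach 4.20 (ponzr4) and the named falls -2.15 (ela3l).

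The largest rise belonged to ponzr4 (ENSDARG00000087440, chromosome 7, 22680560 to 22684292), a member of the plac8 onzin related family of small cysteine-rich proteins. Its level went from 1.51, 1.28 and 1.52 FPKM to 47.7, 42.2 and 41.3 FPKM, a log2 fold change of 4.20 ± 0.07 (adjusted p = 1.88e-12). Its relative ponzr3 went from 8.11, 7.13 and 7.56 FPKM to 167, 151 and 125 FPKM (4.1 ± 0.16). The groups were far apart for both genes, while ponzr1, known for its part in forming the larval kidney, fell by 0.43 on the log2 scale, and of 6 tested family members 3 rose and 1 fell. The other named rises, the 10 largest by the rule for named genes, were rhcga, an ammonia channel of the Rhesus family (4.13 ± 0.15), ankrd37, an ankyrin repeat protein (4.00 ± 0.11), egln3, an oxygen sensor (3.71 ± 0.06), map1lc3cl, an LC3-like protein of the autophagosome (3.67 ± 0.15), pdk2b, a kinase that switches off pyruvate dehydrogenase (3.48 ± 0.23), pmaip1, the cell death activator Noxa (3.18 ± 0.14), gvin1l2, of a family of very large interferon-induced GTPases (3.12 ± 0.10), and ddit4, an inhibitor of growth signalling through mTOR (2.96 ± 0.11). The 10 largest falls by the same rule held 5 genes of the exocrine pancreas (ela3l, prss59.1, ela2, ctrb.3 and sycn.2) beside guca1g, pclaf, apoba, cyp2aa9 and hmgcra, which are described with their groups.

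Of 14 genes for HIF subunits and oxygen sensors, 9 rose and 1 fell (median 0.68). Beside egln3, the prolyl hydroxylase egln2 went from 3.21, 2.43 and 2.46 FPKM to 11.9, 12.9 and 12.6 FPKM (1.87 ± 0.09, adjusted p = 1.29e-08). The asparaginyl hydroxylase hif1an went from 13.9, 12.1 and 13.3 FPKM to 46.4, 42.1 and 44.9 FPKM (1.69 ± 0.09). The recognition subunit of the HIF ubiquitin ligase, vhl, also rose (1.57 ± 0.11). The alpha subunit hif1ab, which is controlled mainly as a protein, fell slightly, from 29.9, 30.1 and 30.0 FPKM to 26.9, 26.9 and 28.5 FPKM (-0.13 ± 0.04, adjusted p = 0.0378), and this call was lost without either the first or the second hypoxic library (adjusted p = 0.102 and 0.110), without any of the 3 normoxic ones (0.0784, 0.0906 and 0.0894) and without the first or the third normoxic wild-type library (0.0528 and 0.0513).

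Known targets of hypoxia rose as a group, 36 of 48 against 4 that fell (median 0.69). They included pfkfb3, which makes the activator of phosphofructokinase (2.42 ± 0.09), p4ha1b, a collagen prolyl hydroxylase (2.42 ± 0.12), and angptl4, an inhibitor of lipoprotein lipase (1.47 ± 0.07). The angiogenic factor vegfaa went from 3.53, 3.62 and 3.55 FPKM to 7.01, 5.31 and 5.73 FPKM (0.61 ± 0.11, adjusted p = 0.000613). Erythropoietin, epoa, lay below the level needed for testing, with normoxic values of 0.311, 0.353 and 0.385 FPKM and hypoxic values of 0.766, 0.558 and 1.19 FPKM. Its receptor epor did not pass (0.21 ± 0.16, adjusted p = 0.320).

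Of 37 genes for glycolysis and lactate, 28 rose and 1 fell (median 0.64; 25 higher and 5 lower after TPM scaling, median 0.49), and the enzymes pgam1a and eno1a had the largest rises. Phosphoglycerate mutase, pgam1a, went from 46.1, 51.4 and 49.2 FPKM to 130, 127 and 118 FPKM (1.34 ± 0.07). Enolase, eno1a, went from 146, 148 and 148 FPKM to 361, 339 and 334 FPKM (1.22 ± 0.04, adjusted p = 1.80e-09). Among the pyruvate dehydrogenase kinases, which keep pyruvate out of the mitochondrial cycle, pdk2a and pdk2b rose further than these enzymes. The first, pdk2a, went from 21.1, 21.4 and 20.9 FPKM to 108, 94.1 and 84.4 FPKM (2.12 ± 0.08). The gene pdk2b went from 4.4, 6.24 and 5.24 FPKM to 96.3, 66.8 and 50.9 FPKM. The hypoxic libraries were spread widely for pdk2b, all above the normoxic ones. In the same set of 13 genes, pdk4 (1.2 ± 0.08) and pdk3a (0.99 ± 0.08) rose too, and the phosphatase pdp2, which reverses these kinases, fell by 0.52.

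Among 21 genes for gluconeogenesis and glucose handling, 11 rose and 7 fell (median 0.42). Cytosolic phosphoenolpyruvate carboxykinase, pck1, the first committed enzyme of gluconeogenesis, went from 49.9, 48.9 and 47.2 FPKM to 210, 219 and 198 FPKM (2.08 ± 0.07). Glucose-6-phosphatase, g6pc1a.1, went from 11.0, 8.59 and 9.80 FPKM to 32.8, 37.1 and 35.9 FPKM (1.75 ± 0.10). The glucose-phosphorylating enzyme of liver, gck (glucokinase), moved the other way, from 1.51, 2.19 and 2.18 FPKM to 0.0855, 0.193 and 0.197 FPKM (-1.35 ± 0.12). The insulin gene ins read 21.5, 23.1 and 23.7 FPKM against 21.4, 20.4 and 24.0 FPKM in hypoxia, groups that overlapped (-0.05 ± 0.11, adjusted p = 0.740).

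Of 31 fatty acid oxidation genes, 15 fell and 4 rose (median -0.22). The largest falls were in acad11, an acyl-CoA dehydrogenase (-0.88 ± 0.08, groups apart), and in cpt2, which completes the entry of fatty acids into mitochondria (17, 17.2 and 16.5 FPKM to 9.90, 9.43 and 8.86 FPKM). The carnitine transferase cpt1ab rose, from a mean of 33.9 to 55.3 FPKM (0.69 ± 0.06).

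Tricarboxylic acid cycle genes were split, with 7 of 21 higher and 3 lower (median 0.08), or 3 and 9 (median -0.08) after TPM scaling. The biotin enzymes that feed the cycle went in opposite directions, pcxb from 26.9, 30.5 and 30.3 FPKM to 44.3, 46.9 and 43.9 FPKM (0.61 ± 0.09) and pcxa from 15.1, 15.8 and 15.6 FPKM to 11.2, 12.7 and 13 FPKM (-0.31 ± 0.06).

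Of 84 nuclear genes for the respiratory chain and ATP synthase, 17 rose and 7 fell (median 0.05), close to or below the background shares. The split was 9 and 33 (median -0.10) after TPM scaling and ran from 11 to 19 higher and from 1 to 12 lower when each knockout library was left out, so no direction holds for this group. Its clear rises were in a few subunits of cytochrome c oxidase: cox4i1l went from 9.87, 7.32 and 7.48 FPKM to 59.6, 61.2 and 57.6 FPKM (2.72 ± 0.11, adjusted p = 2.98e-09), ndufa4b from 64.9, 62.6 and 70.0 FPKM to 140, 135 and 130 FPKM (1.03 ± 0.05), and cox6b1 from a mean of 125 to 245 FPKM (0.97 ± 0.07).

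On the mitochondrial genome, 8 of 13 protein genes fell and 2 rose (median -0.32; 1 higher and 11 lower after TPM scaling, median -0.48). MT-ATP6, a subunit of ATP synthase, went from 6010, 5593 and 6378 FPKM to 3587, 3474 and 3696 FPKM (-0.74 ± 0.06). MT-ND1, a subunit of complex I, went from 2484, 2364 and 2491 FPKM to 1606, 1569 and 1586 FPKM (-0.62 ± 0.05). The pair that rose, MT-CO1 (0.31 ± 0.05) and MT-CO2 (0.19 ± 0.06), encode the catalytic core of cytochrome c oxidase. The share of reads on the organelle's genome was 3.97% to 4.18% in normoxia and 3.65% to 3.75% in hypoxia. Of the mitochondrial ribosomal proteins, 28 of 75 fell and 3 rose (median -0.18; 0 higher and 56 lower after TPM scaling, median -0.33). Without 1 knockout library, 21 to 32 fell. The lowest values were those of mrpl1 and mrpl53, -0.67 ± 0.11 and -0.66 ± 0.14.

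Autophagy genes rose, 27 of 45 against 3 that fell (median 0.33; 19 higher and 5 lower after TPM scaling, median 0.19). The mitophagy receptor bnip3lb went from 18.8, 17.5 and 18.3 FPKM to 73.5, 70.8 and 68.3 FPKM (1.90 ± 0.07, adjusted p = 1.46e-09). The gene map1lc3cl went from 1.58, 2.13 and 2.09 FPKM to 43.8, 31.2 and 34.5 FPKM. Smaller rises were seen in wipi2, which acts early in making the autophagosome (1.06 ± 0.05), and in the cargo adaptor sqstm1 (0.71 ± 0.06).

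Among 41 genes of cell death and growth arrest, 24 rose and 4 fell (median 0.32; 17 higher and 6 lower after TPM scaling, median 0.20). The list mixed activators and inhibitors of apoptosis. The activator pmaip1 went from 4.57, 3.39 and 4.01 FPKM to 51.8, 47.2 and 35.0 FPKM (3.18 ± 0.14, adjusted p = 6.51e-09), with bbc3 (Puma) at 0.66 ± 0.08 and the initiator caspase casp9 at 0.81 ± 0.10. The survival factors mcl1b, from 28.3, 25.7 and 26.5 FPKM to 105, 95.0 and 83.2 FPKM (1.77 ± 0.09), and mcl1a (1.27 ± 0.07) rose in the same libraries. The cell cycle inhibitor cdkn1a fell (-0.43 ± 0.11), whereas the ubiquitin ligase mdm2 rose (0.66 ± 0.09).

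**Figure D2:**
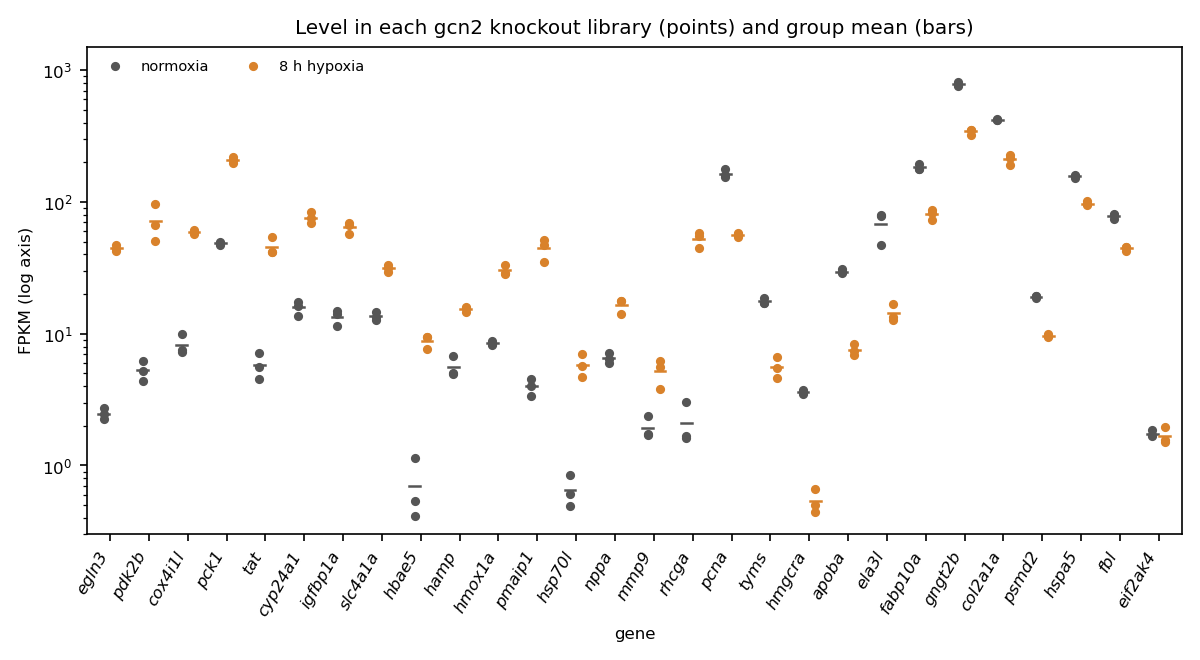
FPKM in each gcn2 knockout library on a log axis, for 28 genes chosen from the named genes, with 3 normoxic (grey) and 3 hypoxic (orange) points and a bar for each group mean. The points of the oxygen groups overlap for eif2ak4 and are apart for the other genes shown, which except for hspa5 were named by a rule that required this.

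In these knockout larvae, 22 of 44 genes of the integrated stress response and Atf4 targets rose and 9 fell (median 0.22; 20 higher and 14 lower after TPM scaling, median 0.09). The rises were led by ddit4, from 9.28, 9.02 and 10.4 FPKM to 102, 73.6 and 71.7 FPKM, and by ppp1r15a (Gadd34), which directs the dephosphorylation of eIF2, from 18.4, 18.1 and 16.9 FPKM to 104, 80.1 and 76.8 FPKM (2.21 ± 0.09, adjusted p = 4.36e-09). The groups did not overlap for either gene, which the rule that named them required. Moderate rises were measured for atf4a (165, 167 and 160 FPKM to 231, 192 and 210 FPKM; 0.36 ± 0.06), for the stress factor ddit3 or Chop (0.29 ± 0.08, adjusted p = 0.00880, and 0.13 with adjusted p = 0.179 after TPM scaling) and for psat1 of serine synthesis (0.86 ± 0.09). Asparagine synthetase, asns, a standard Atf4 target, fell from 6.01, 6.57 and 6.21 FPKM to 4.34, 4.01 and 4.64 FPKM (-0.45 ± 0.07, adjusted p = 0.000381), and the amino acid transporter slc38a2 fell by 0.77 ± 0.08.

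Genes for eIF2, its exchange factor and its kinases gave 3 of 15 higher and 4 lower (median -0.03; 2 higher and 7 lower after TPM scaling, median -0.18). The kinase of the endoplasmic reticulum, eif2ak3 (Perk), went from 7.32, 7.91 and 7.95 FPKM to 4.89, 5.18 and 5.52 FPKM (-0.49 ± 0.08). The gene gcn1, the partner that activates Gcn2, went from 14.2, 13.9 and 14.3 FPKM to 9.66, 10.7 and 11.9 FPKM (-0.37 ± 0.08). Cytosolic aminoacyl-tRNA synthetases, which charge transfer RNA, fell in 15 of 22 cases and rose in 3 (median -0.29; 1 higher and 17 lower after TPM scaling, median -0.44). The valine enzyme vars1 fell by 0.68 ± 0.06 on the log2 scale.

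Amino acid transporters went both ways, with 18 of 54 higher and 10 lower (median 0.05; 16 higher and 15 lower after TPM scaling, median -0.09). Without 1 knockout library, 5 to 7 fell. The neutral amino acid carriers slc38a5b (25.5, 24.4 and 25.9 FPKM to 76.8, 74.1 and 67.9 FPKM) and slc43a2b (59.8, 55.0 and 57.7 FPKM to 166, 160 and 158 FPKM) rose by 1.49 ± 0.06 and 1.47 ± 0.08.

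Of 79 cytosolic ribosomal protein genes, 61 rose and 1 fell, each by a small amount (median 0.31; 41 and 1, median 0.15, after TPM scaling). Examples are rps27.1, from 913, 894 and 943 FPKM to 1335, 1207 and 1161 FPKM (0.43 ± 0.07), and rplp0 of the ribosomal stalk (0.41 ± 0.07). The paralog rps27l rose by 0.50 ± 0.14 with overlap-free groups (35.3, 32.4 and 31.5 FPKM against 36.6, 54.7 and 52.3 FPKM), but its call was lost after TPM scaling (adjusted p = 0.0653) and without the second or the third hypoxic library (0.0605 and 0.0531). Of 67 ribosome biogenesis genes, 36 fell and 4 rose (median -0.24). Fibrillarin, fbl, the methyltransferase of ribosomal RNA, went from 74.2, 80.5 and 80.2 FPKM to 45.8, 42.3 and 45.7 FPKM (-0.80 ± 0.05, adjusted p = 2.39e-07), and mych, a Myc factor, fell by 0.73 ± 0.13, whereas nop53 rose by 0.71 ± 0.06.

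Chaperones of the endoplasmic reticulum and genes of its unfolded protein response were lower in 21 of 43 cases and higher in 5 (median -0.21; 4 higher and 28 lower after TPM scaling, median -0.34). BiP, hspa5, went from 159, 158 and 153 FPKM to 96.2, 101 and 94.6 FPKM (-0.68 ± 0.04, adjusted p = 1.07e-07). The largest rises were in creb3l3b, a membrane-bound transcription factor of liver and gut (1.54 ± 0.12), and in derl3, which helps export misfolded proteins from the reticulum (8.00, 8.72 and 9.15 FPKM to 20.4, 22.9 and 17 FPKM; 1.12 ± 0.12).

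Of 39 heat shock chaperones, 9 rose and 13 fell (median -0.02; 6 higher and 21 lower after TPM scaling, median -0.17). The inducible Hsp70 genes rose from low levels: hsp70l from 0.850, 0.492 and 0.604 FPKM to 5.66, 6.97 and 4.72 FPKM (2.03 ± 0.16) and hsp70.1 from 1.00, 0.641 and 0.681 FPKM to 4.79, 5.76 and 4.48 FPKM (1.76 ± 0.12). The gene hsp70.3 went from a mean of 3.48 ± 0.15 FPKM to 12.3 ± 1.9 FPKM (SD, n = 3; log2 fold change 1.56 ± 0.14). These genes are close copies of one another, so reads may be divided among them. The mitochondrial chaperonin hspd1 fell from 80.4, 86.8 and 83.0 FPKM to 42.0, 44.5 and 44.7 FPKM (-0.92 ± 0.04).

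Of 50 proteasome genes, 39 fell and 1 rose (median -0.34), and 32 to 38 fell without 1 knockout library. The scaffold subunits of the regulatory particle had the largest falls, psmd2 from 19.4, 19.5 and 18.6 FPKM to 9.45, 9.56 and 9.91 FPKM (-0.92 ± 0.08) and psmd1 from 39.3, 39.1 and 41.5 FPKM to 20.4, 20.4 and 22.2 FPKM (-0.90 ± 0.07). Of 35 genes of the Nrf2, glutathione and thioredoxin systems, 12 fell and 4 rose (median -0.06; 3 higher and 20 lower after TPM scaling, median -0.22); the antioxidant regulator nfe2l2a itself rose from 30.0, 31.3 and 31.3 FPKM to 77.5, 78.8 and 67.8 FPKM (1.24 ± 0.07), and catalase, cat, fell by 0.56 ± 0.06.

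Genes of cell division fell without exception in these lists. All 59 tested DNA replication genes fell (median -0.98, from -1.85 to -0.28), and so did all 58 mitosis and kinetochore genes (median -0.75, from -1.15 to -0.27); 57 to 58 and 55 to 58 were called when each knockout library was left out in turn. The sliding clamp pcna went from 156, 177 and 160 FPKM to 56.9, 54.1 and 58.5 FPKM (-1.52 ± 0.06, adjusted p = 4.08e-09). The helicase subunit mcm6 went from 23.5, 27.1 and 25.6 FPKM to 7.96, 8.76 and 9.29 FPKM (-1.45 ± 0.07). The PCNA-associated factor pclaf fell further on average, but with unequal libraries (27.1, 15.9 and 53.2 FPKM to 8.31, 8.98 and 4.90 FPKM; -1.85 ± 0.45, adjusted p = 0.00508). In mitosis, kif20a of the late spindle fell by 1.15 ± 0.09 and spc24 of the outer kinetochore by 1.12 ± 0.12.

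Enzymes of nucleotide synthesis followed in part, with 18 of 32 lower and 8 higher (median -0.28). Those for deoxynucleotides fell most: thymidylate synthase, tyms, went from 17.2, 18.7 and 17 FPKM to 4.60, 5.50 and 6.71 FPKM (-1.51 ± 0.12). The large subunit of ribonucleotide reductase, rrm1, went from 36.1, 37.1 and 36.5 FPKM to 13.4, 11.6 and 14.9 FPKM (-1.4 ± 0.08). Purine synthesis was divided, since paics rose by 0.84 ± 0.10 while gart fell from 14.2, 15.3 and 15 FPKM to 6.16, 6.26 and 6.54 FPKM (-1.11 ± 0.06).

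**Figure D3:**
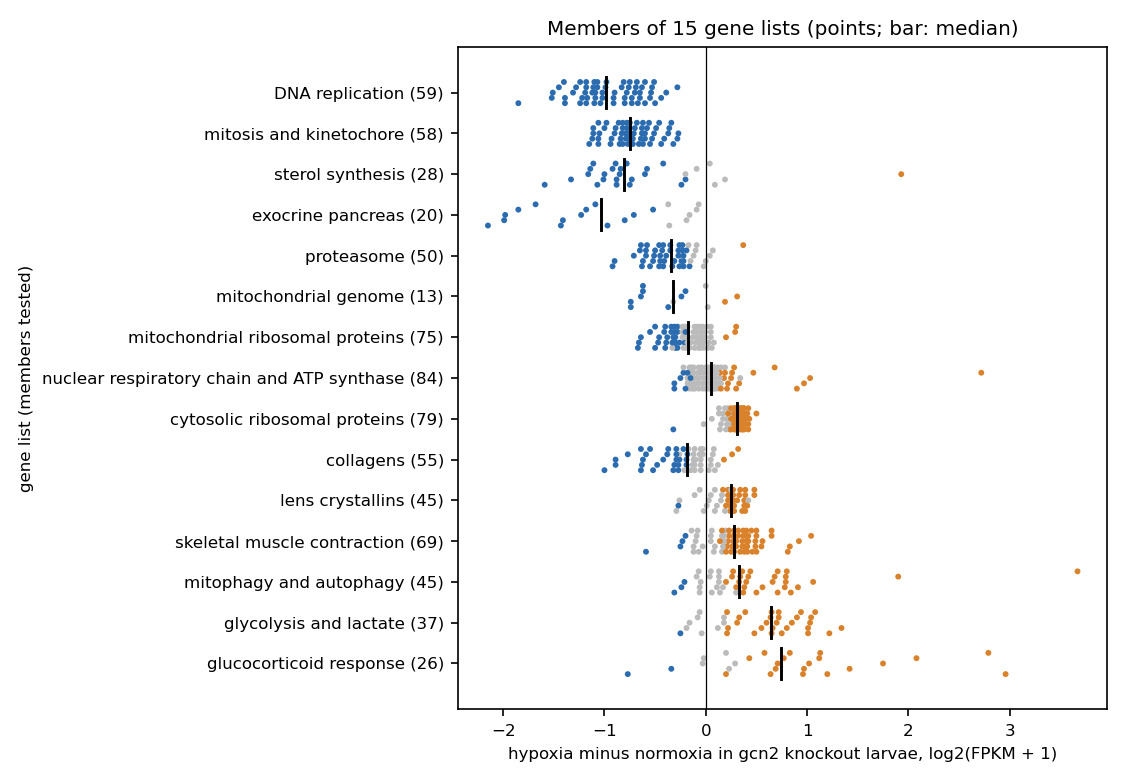
Log2 fold change in hypoxia of every tested member of 15 gene lists in gcn2 knockout larvae (x axis, log2(FPKM + 1) scale), with the list on the y axis, the number of members tested in parentheses and a bar at the median. Orange and blue members passed the test, grey ones did not; all 59 DNA replication and all 58 mitosis genes lie below 0, and the glucocorticoid list has its median at 0.74.

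Sterol synthesis genes fell, 22 of 28 against 1 that rose (median -0.81). HMG-CoA reductase, hmgcra, the rate-limiting enzyme of cholesterol synthesis, went from 3.77, 3.47 and 3.63 FPKM to 0.443, 0.668 and 0.499 FPKM (-1.59 ± 0.12), hmgcs1 of the step before fell by 1.33 ± 0.10, and srebf2, the transcription factor that drives the pathway, by 1.00 ± 0.08. The gene that rose was insig1, which holds that factor's precursor in the endoplasmic reticulum, from 8.73, 7.35 and 7.35 FPKM to 35.0, 32.3 and 30.4 FPKM (1.93 ± 0.09).

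Fatty acid and triglyceride genes were divided, with 10 of 30 lower and 7 higher (median -0.04; 5 higher and 13 lower after TPM scaling, median -0.17). Among the falls was the desaturase fads2 (-1.08 ± 0.09). The larger rises concerned the storage and release of triglyceride: g0s2, an inhibitor of the lipase Atgl, went from 4.17, 3.26 and 3.4 FPKM to 18.6, 14.9 and 12.2 FPKM (1.80 ± 0.14). The gene lpin1a, a phosphatidate phosphatase, went from 6.27, 9.00 and 8.47 FPKM to 20.5, 20.6 and 18.6 FPKM (1.24 ± 0.12).

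Apolipoprotein and lipoprotein assembly genes rose in 9 of 17 cases and fell in 2 (median 0.36; 7 higher and 3 lower after TPM scaling, median 0.20). The falls were in genes of apolipoprotein B, the structural protein of large lipoproteins: apoba went from 29.2, 28.9 and 30.9 FPKM to 6.90, 8.30 and 7.45 FPKM (-1.84 ± 0.10, adjusted p = 5.66e-08) and apobb.2 fell by 0.71. The abundant apoa1a of high-density lipoprotein rose from 2273, 2184 and 2327 FPKM to 3658, 3205 and 3230 FPKM (0.57 ± 0.10). The vitellogenin vtg7, a yolk protein, went from 1.66, 1.27 and 0.993 FPKM to 5.70, 5.78 and 6.54 FPKM (1.61 ± 0.16).

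Globin genes rose, 9 of 14 with none lower (median 0.70). The minor embryonic alpha globin hbae5 had the largest change, from 1.14, 0.539 and 0.413 FPKM to 9.37, 7.70 and 9.50 FPKM (2.56 ± 0.17). The beta globin hbbe2 went from 84.9, 79.1 and 84.1 FPKM to 218, 203 and 208 FPKM (1.33 ± 0.05). The more abundant hbae3 (525, 510 and 498 FPKM to 760, 640 and 742 FPKM) and hbbe1.1 (456, 421 and 454 FPKM to 861, 751 and 821 FPKM) rose by 0.48 ± 0.12 and 0.87 ± 0.12. Embryonic globin genes are near-identical tandem copies, so the division of reads among them is uncertain.

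Of the other red cell genes, 9 of 31 rose and 3 fell (median 0.05; 7 higher and 9 lower after TPM scaling, median -0.04). Band 3, slc4a1a, the anion exchanger of the red cell membrane, went from 12.7, 13.5 and 14.5 FPKM to 29.5, 31.4 and 33.2 FPKM (1.15 ± 0.07, adjusted p = 1.63e-07), and the nucleotidase nt5c2l1 rose by 0.97 ± 0.11. The erythroid transcription factor gata1a did not pass (0.714, 1.38 and 1.16 FPKM against 1.36, 0.915 and 1.15 FPKM; adjusted p = 0.827), nor did alas2, the first enzyme of haem synthesis in red cells (3.31, 2.37 and 3.29 FPKM against 3.72, 4.71 and 4.01 FPKM; 0.37 ± 0.16, adjusted p = 0.0823), although its groups did not overlap and it passed when the 6 knockout libraries were fitted alone (adjusted p = 0.0384).

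Haem synthesis as a list showed no common direction, with 5 of 23 higher and 7 lower (median -0.01). The mitochondrial glycine carrier slc25a38a rose from 0.576, 0.415 and 0.348 FPKM to 3.69, 2.17 and 2.61 FPKM (1.39 ± 0.14) and clpxa, an unfoldase that acts on the first enzyme of the pathway, by 0.74 ± 0.06, while alas1, the form of that enzyme used outside red cells, fell by 0.57 ± 0.09. Of 30 genes for haem breakdown and iron handling, 14 rose and 4 fell (median 0.29; 11 higher and 8 lower after TPM scaling, median 0.15). Haem oxygenase, hmox1a, went from 8.78, 8.32 and 8.21 FPKM to 33.4, 28.8 and 28.6 FPKM (1.73 ± 0.08), and hepcidin, hamp, the hormone that blocks iron release, from 6.74, 5.04 and 4.98 FPKM to 16, 15.7 and 14.5 FPKM (1.33 ± 0.17). Hemopexin, hpxa, which clears free haem from blood (0.95 ± 0.12), and ncoa4, which delivers ferritin for breakdown (0.86 ± 0.05), rose in the same libraries.

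Digestive enzymes of the exocrine pancreas had the lowest median of all the lists (-1.03), with 14 of 20 genes lower and none higher. Elastase, ela3l, went from 46.9, 79.4 and 78.5 FPKM to 13.4, 16.7 and 12.8 FPKM (-2.15 ± 0.25, adjusted p = 2.17e-05). The trypsin-like prss59.1 went from 108, 142 and 146 FPKM to 28.3, 37.4 and 31.6 FPKM (-1.99 ± 0.25). The first normoxic library was the lowest of its group for both genes, and all hypoxic libraries lay below it. Close relatives of 2 strongly falling genes fell less. For prss59.1 this was prss59.2, at -0.80 ± 0.27, and for ctrb.3 (-1.85 ± 0.27) it was ctrb.1, at -0.52 ± 0.20 (adjusted p = 0.0497).

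Of 42 secreted liver proteins, 12 rose and 13 fell (median -0.03; 10 higher and 18 lower after TPM scaling, median -0.18). The 3 chains of the clotting protein fibrinogen rose: fgg from 67.5, 57.9 and 58.8 FPKM to 155, 142 and 129 FPKM (1.2 ± 0.09), fgb by 0.99 ± 0.09 and fga by 0.53 ± 0.07. The liver fatty acid binding protein fabp10a fell from 179, 178 and 195 FPKM to 72.8, 87.5 and 82.4 FPKM (-1.18 ± 0.07), as did fetub (-0.96 ± 0.10). Cytochrome P450 genes gave 15 of 66 higher and 21 lower (median -0.06; 11 higher and 26 lower after TPM scaling, median -0.18). The vitamin D hydroxylase cyp24a1 went from 16.3, 17.5 and 13.7 FPKM to 75.0, 83.2 and 69.4 FPKM (2.19 ± 0.13) and cyp2aa9 from 4.33, 3.31 and 4.13 FPKM to 0.571, 0.493 and 0.711 FPKM (-1.63 ± 0.15). Intestinal markers showed 6 of 29 higher and 6 lower (median 0.04; 3 higher and 8 lower after TPM scaling, median -0.08). The bile acid binding protein fabp6 fell went from 36.4, 40.7 and 43.0 FPKM to 23.3, 23.3 and 17.4 FPKM (-0.89 ± 0.26, adjusted p = 0.0147), a call lost without the third hypoxic library (adjusted p = 0.0583).

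In the eye, phototransduction genes fell in 23 of 51 cases and rose in 6 (median -0.24; 3 higher and 27 lower after TPM scaling, median -0.38). The calcium sensor guca1g went from 6.48, 6.38 and 7.05 FPKM to 1.5, 0.936 and 0.880 FPKM (-1.87 ± 0.14). The cone transducin subunit gngt2b went from 766, 757 and 814 FPKM to 353, 321 and 354 FPKM (-1.18 ± 0.09). The ultraviolet cone opsin opn1sw1 fell from 1032, 1125 and 1157 FPKM to 739, 735 and 706 FPKM (-0.60 ± 0.18). Lens crystallins rose by small amounts in 27 of 45 cases, with 1 lower (median 0.25), which became 12 and 3 (median 0.09) after TPM scaling. The largest rises, in crygm2d20 and crygm5, were each 0.48 ± 0.09.

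Of 69 skeletal muscle contraction genes, 46 rose and 4 fell (median 0.28; 33 and 10, median 0.12, after TPM scaling). The alpha actin acta1a went from 173, 154 and 167 FPKM to 357, 312 and 346 FPKM (1.04 ± 0.07). Myoglobin, mb, which stores oxygen, went from 20.4, 26.4 and 26.6 FPKM to 46.3, 45.9 and 48.4 FPKM (0.92 ± 0.13). Heart genes rose in 14 of 20 cases, with 1 lower (median 0.34; 8 higher and 1 lower after TPM scaling, median 0.20). The natriuretic peptides, hormones that the stretched heart secretes, had the largest rises, nppb from 0.547, 0.897 and 0.795 FPKM to 3.49, 2.97 and 3.58 FPKM (1.32 ± 0.15) and nppa from 6.38, 7.12 and 6.03 FPKM to 17.6, 17.6 and 14.1 FPKM (1.21 ± 0.12).

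Endothelial genes rose in 19 of 35 cases and fell in 1 (median 0.22), but in 7 and 5 after TPM scaling (median 0.10), and 12 to 17 rose when each knockout library was left out. The vessel-destabilising ligand angpt2b went from 0.997, 1.01 and 0.874 FPKM to 3.62, 3.21 and 2.47 FPKM (1.06 ± 0.12), and lyve1b, a marker of lymphatic vessels, rose by 0.67 ± 0.15.

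Collagen genes fell in 27 of 55 cases and rose in 3 (median -0.19; 1 higher and 40 lower after TPM scaling, median -0.33). The falls were led by fibrillar and associated collagens of cartilage: col2a1a went from 416, 424 and 421 FPKM to 190, 215 and 226 FPKM (-1.0 ± 0.09, adjusted p = 3.80e-06) and col11a2 from 61.7, 59.4 and 59.3 FPKM to 28.0, 32.8 and 35.3 FPKM (-0.89 ± 0.09). The gene col9a1b went from 19.8, 19.9 and 21.0 FPKM to 9.94, 10.9 and 10.7 FPKM (-0.89 ± 0.22). The bone and skin collagen col1a2 fell by 0.29 ± 0.05.

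Keratins and other genes of the larval skin rose in 19 of 31 cases and fell in 4 (median 0.43; 18 higher and 7 lower after TPM scaling, median 0.27). The abundant keratin krt4 went from 3764, 3673 and 3304 FPKM to 5011, 4462 and 4780 FPKM (0.41 ± 0.08). The largest changes of the list were in agr1, from 47.0, 45.8 and 39.3 FPKM to 117, 106 and 106 FPKM (1.3 ± 0.09), and in the annexin anxa1b, from 25.3, 29.7 and 28.2 FPKM to 11.3, 9.00 and 11.8 FPKM (-1.3 ± 0.14).

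Genes of skin ionocytes, the cells that exchange ions, acid and ammonia with the water, rose in 15 of 37 cases and fell in 8 (median 0.13; 11 higher and 11 lower after TPM scaling, median -0.02). The ammonia channel rhcga went from 1.66, 3.04 and 1.62 FPKM to 57.9, 55.4 and 44.5 FPKM (adjusted p = 1.85e-09), and its relatives rhcgb, from 6.23, 6.46 and 7.09 FPKM to 14.7, 15.6 and 14.6 FPKM (1.07 ± 0.11), and rhbg (0.67 ± 0.06) rose as well. The epithelial calcium channel trpv6 fell by 0.67 ± 0.14. Subunits of the vacuolar proton pump gave 8 of 24 higher and 4 lower (median 0.09), or 3 and 9 (median -0.06) after TPM scaling; atp6v1b2 rose from 48.3, 51.1 and 45.1 FPKM to 69.6, 66.9 and 66.3 FPKM (0.48 ± 0.05) and the accessory subunit atp6ap1la fell by 0.76 ± 0.11.

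Of 67 neuronal and synaptic genes, 14 rose and 17 fell (median -0.01; 11 higher and 26 lower after TPM scaling, median -0.15). The synaptic vesicle protein syn1 went from 13, 14.7 and 15.5 FPKM to 5.04, 5.81 and 6.13 FPKM (-1.21 ± 0.17) and the tubulin tubb5 from 177, 170 and 165 FPKM to 71.6, 70.9 and 83.0 FPKM (-1.17 ± 0.07). The glutamate transporter slc1a2b went from 64.9, 72.2 and 79.0 FPKM to 33.5, 34.2 and 39.4 FPKM (-0.99 ± 0.19). The rises were led by the glutamine synthetases glula, from 70.6, 69.0 and 73.0 FPKM to 171, 161 and 137 FPKM (1.13 ± 0.10), and glulb (1.02 ± 0.07), which are also expressed outside the nervous system.

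Genes of macrophages and neutrophils rose in 12 of 29 cases and fell in 1 (median 0.27; 9 higher and 2 lower after TPM scaling, median 0.18). Inflammatory mediators rose in 27 of 35 with 1 lower (median 0.36; 14 and 1 after TPM scaling, and 18 to 26 higher without 1 knockout library). The matrix protease mmp9 went from 2.37, 1.74 and 1.70 FPKM to 5.64, 6.18 and 3.80 FPKM (1.07 ± 0.14), mpeg1.2, a macrophage perforin, from 2.99, 2.17 and 2.28 FPKM to 6.36, 6.61 and 5.23 FPKM (1.02 ± 0.11). The AP-1 factor fosl1a went from 0.517, 0.552 and 0.188 FPKM to 1.94, 3.41 and 1.56 FPKM (1.19 ± 0.18). Defining markers of these cells did not pass: the neutrophil peroxidase mpx read 6.75, 5.90 and 5.86 FPKM against 5.49, 5.92 and 6.66 FPKM (adjusted p = 0.781), and mpeg1.1 read 2.12, 2.24 and 2.22 FPKM against 2.51, 2.52 and 2.42 FPKM (adjusted p = 0.216). The cytokine il1b lay below the level needed for testing, with normoxic values of 0.206, 0.135 and 0.121 FPKM and hypoxic values of 0.285, 1.32 and 0.525 FPKM.

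Genes known to respond to glucocorticoids had the highest median of the lists (0.74), with 19 of 26 higher and 2 lower. Tyrosine aminotransferase, tat, a classical liver target, went from 4.55, 7.20 and 5.58 FPKM to 41.5, 54.1 and 41.5 FPKM (2.79 ± 0.16, adjusted p = 5.10e-08), hsd20b2, which inactivates cortisol, from 4.14, 4.65 and 5.05 FPKM to 14.3, 15.6 and 12.2 FPKM (1.42 ± 0.10), and the target klf9 rose by 1.2 ± 0.19. The receptor nr3c1 rose by 0.20 ± 0.05 (adjusted p = 0.00552), a change of 0.05 that did not pass after TPM scaling (adjusted p = 0.570). Several members (pck1, g6pc1a.1, ddit4) also stand in other lists and respond to more than this hormone.

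Circadian clock genes rose in 18 of 39 cases and fell in 2 (median 0.18; 12 higher and 6 lower after TPM scaling, median 0.08). The cryptochrome cry4 went from 19.2, 18.5 and 16.5 FPKM to 43.0, 38.3 and 40.0 FPKM (1.12 ± 0.06) and the repressor nr1d1 from 6.71, 7.05 and 8.89 FPKM to 3.52, 3.73 and 3.25 FPKM (-0.92 ± 0.14), while per1b did not pass (-0.25 ± 0.10, adjusted p = 0.0600). As a fall, per1b did pass after TPM scaling (-0.35, adjusted p = 0.015) and with voom (-0.41, adjusted p = 0.00994). It also passed without the second normoxic library of either genotype (adjusted p = 0.0492 for knockout and 0.0465 for wild type). Genes of the insulin-like growth factor axis rose in 12 of 27 cases with none lower (median 0.23; 11 higher and 3 lower after TPM scaling, median 0.10). The binding proteins that hold these growth factors had the largest rises, igfbp1a from 14.8, 14.1 and 11.4 FPKM to 69.2, 66.4 and 57.4 FPKM (2.18 ± 0.12) and igfbp6b from 3.90, 4.34 and 4.66 FPKM to 20.9, 20.8 and 20.8 FPKM (2.04 ± 0.11), beside the receptor substrate irs2a (1.81 ± 0.08).

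**Figure D4:**
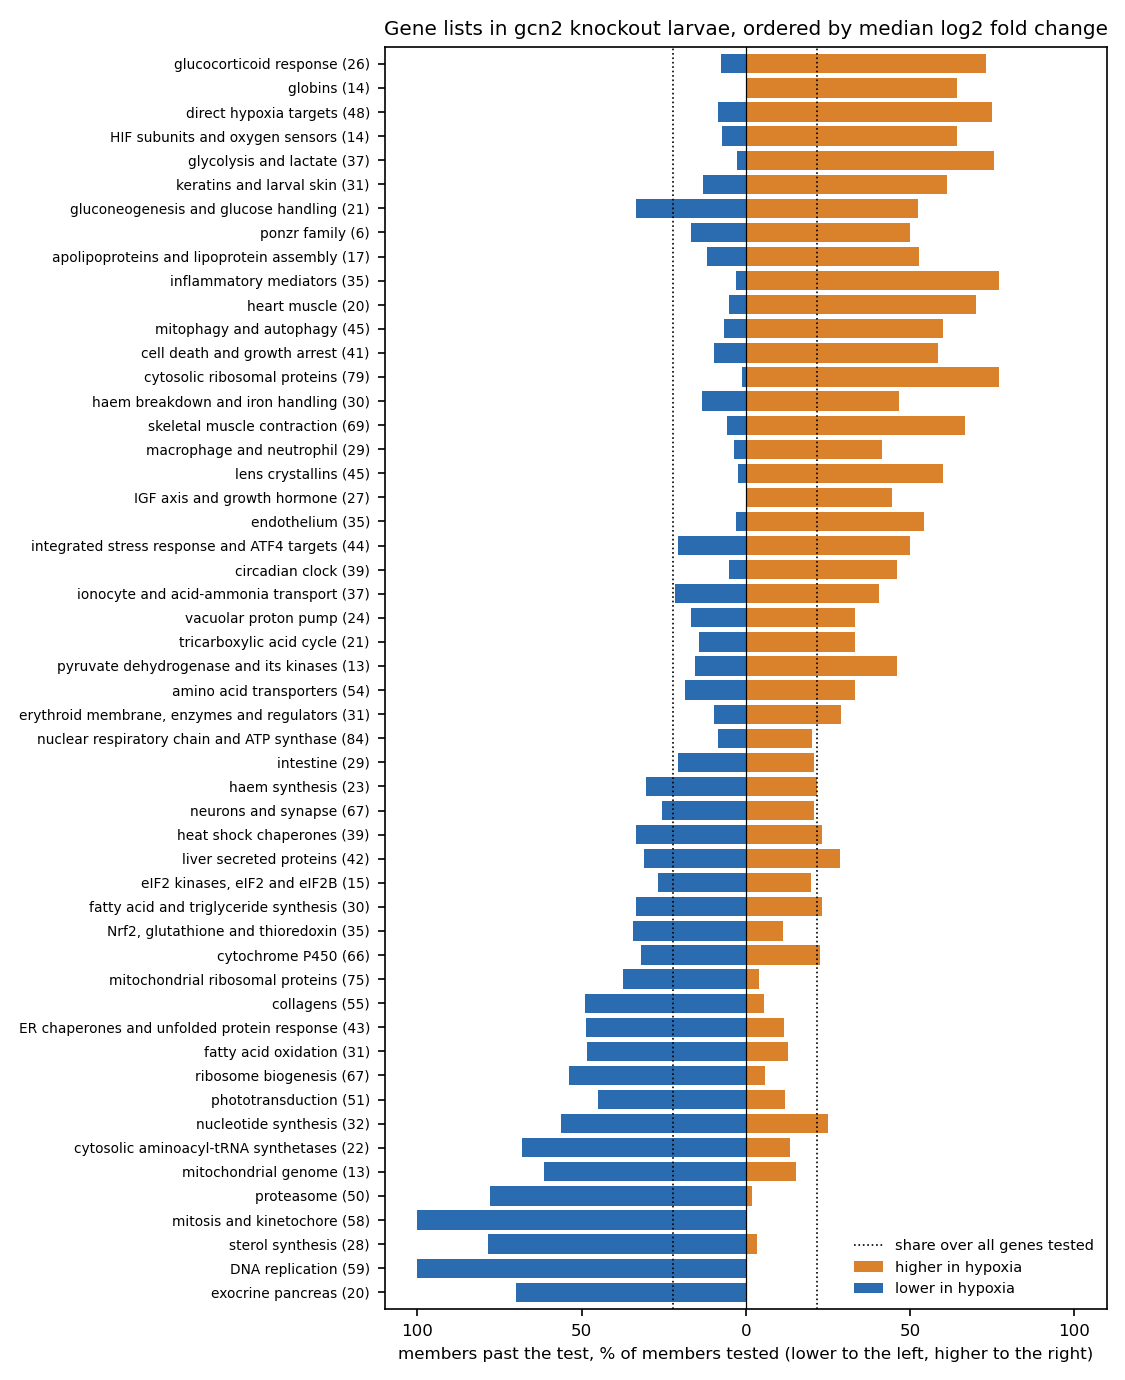
Share of tested members that were higher (orange, to the right) or lower (blue, to the left) in hypoxia in gcn2 knockout larvae for 52 gene lists, with the number tested in parentheses and dotted lines at the shares over all genes (21.8% higher, 22.2% lower). Lists are ordered by median log2 fold change, from 0.74 for the glucocorticoid list to -1.03 for the exocrine pancreas.

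Whether knockout larvae responded differently from wild-type larvae was tested for each gene as the difference between the fold changes (limma interaction, all 12 libraries). It passed for 1986 of 21480 genes (9.25%), with the knockout response more positive in 1019 (4.74%) and more negative in 967 (4.50%). This count leaned on single libraries, running from 480 without the first normoxic wild-type library to 2839 without the first hypoxic one. By sign alone, whether or not either response passed, the genotypes differed in direction in 1087 of the 1986 genes. Both responses passed, in opposite directions, in only 155 of these. The knockout had the larger response of the same sign in 680, and the wild type in 219.

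The smallest adjusted p belonged to pmaip1, which read 2.93, 2.22 and 2.68 FPKM in normoxic and 3.80, 3.42 and 4.3 FPKM in hypoxic wild-type larvae, so that its response was larger in the knockout by 2.76 ± 0.19 (adjusted p = 8.63e-05). Haem oxygenase, hmox1a, reached 10.9, 10.0 and 11.8 FPKM in hypoxic wild-type larvae, which gave a difference of 1.25 ± 0.11 (adjusted p = 0.000452). Hepcidin passed the test in the knockout, whereas in wild type hamp stood at 7.15, 4.21 and 6.59 FPKM and at 4.14, 5.84 and 6.26 FPKM in the wild-type groups, and the difference of the responses was 1.44 ± 0.24 (adjusted p = 0.00932).

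Several genes rose further in the knockout than in wild type, where bzw1b, ak3, hsp70.1 and g0s2 did not pass and hsp70l and tat did (0.47 and 1.22). The translation regulator bzw1b went from 26.4, 27.9 and 27.7 FPKM to 84.6, 74.0 and 63.4 FPKM in the knockout (1.4 ± 0.09), against wild-type values of 29.3, 24.9 and 28.5 FPKM before and 30.0, 29.5 and 31.5 FPKM under hypoxia (difference 1.26 ± 0.13, adjusted p = 0.000748). The mitochondrial adenylate kinase ak3 went from 22.8, 22.8 and 22.4 FPKM to 45.8, 48.9 and 46.1 FPKM, and its wild-type groups overlapped (difference 0.89 ± 0.09). The Hsp70 genes hsp70.1 and hsp70l differed by 1.6 ± 0.17 and 1.57 ± 0.23, g0s2 by 1.44 ± 0.19, and tat, which wild-type larvae held at 1.18, 0.956 and 1.11 FPKM before and 4.18, 2.95 and 4.61 FPKM under hypoxia, by 1.57 ± 0.22.

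For other genes the wild type fell and the knockout did not. The chaperone hsp90aa1.2 went from 28.2, 27.7 and 28.7 FPKM to 15, 15.6 and 15.9 FPKM in wild type, against 21.5, 22.1 and 22.6 FPKM and 27.1, 23.5 and 22.9 FPKM in the knockout (difference 0.97 ± 0.09, adjusted p = 0.000452). The pentose phosphate enzyme pgd fell from 41.5, 37.0 and 42.0 FPKM to 27.4, 24.4 and 25 FPKM in wild type and rose in the knockout from 34.5, 38.1 and 35.9 FPKM to 50.7, 50.2 and 42.9 FPKM (difference 1.02 ± 0.11).

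In the opposite direction, the purine enzyme gart fell by 1.11 in the knockout and by 0.23 in wild type (difference -0.89 ± 0.09, adjusted p = 0.000748). The muscle actin that the authors' table calls ACTC1 (chromosome 20, described there as cardiac alpha actin 2) rose from 91.0, 92.9 and 84.1 FPKM to 187, 160 and 171 FPKM in wild type, against 72.4, 67.4 and 66.9 FPKM and 76.8, 77.4 and 79.1 FPKM in the knockout (difference -0.77 ± 0.09). Band 3, slc4a1a, started at 10.9, 11.0 and 11.7 FPKM and reached 50.6, 44.9 and 42.4 FPKM in wild-type hypoxia, more than in the knockout (difference -0.79 ± 0.10, adjusted p = 0.00348), and the globins hbae5 and hbbe2 rose less in the knockout too (-1.16 ± 0.24 and -0.35 ± 0.07). Glucokinase fell to near 0 in both genotypes from unequal starts, 7.53, 7.5 and 9.62 FPKM in wild type against 1.51 to 2.19 FPKM in the knockout. This gave gck a difference of 1.6 ± 0.17, which unlike those of the genes above was positive, as gck fell less in the knockout on the log2 scale.

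**Figure D5:**
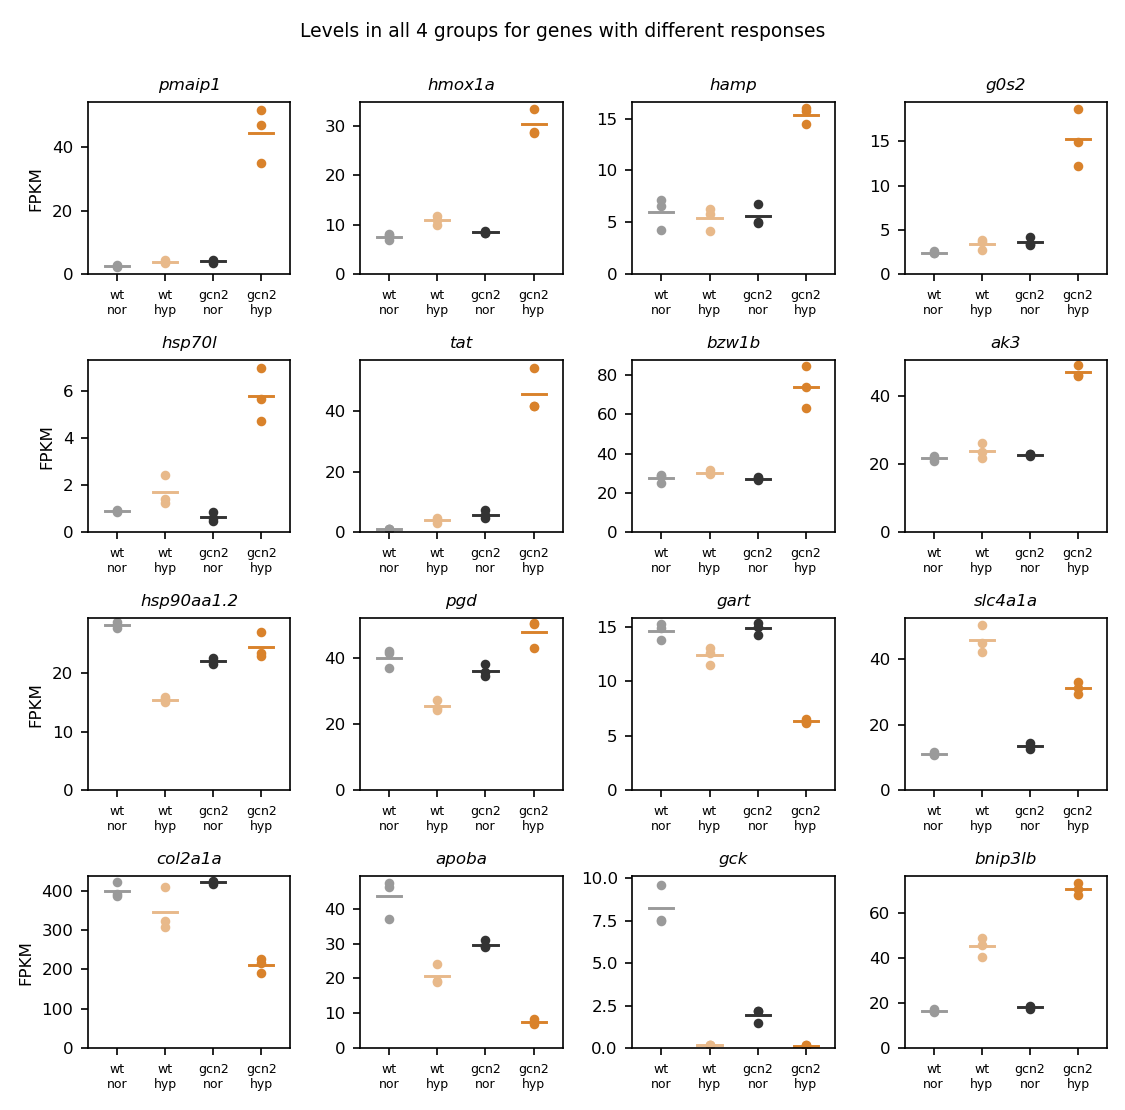
FPKM in all 12 libraries (3 points per group, bar at the mean) for 16 genes whose response differed between the genotypes, with a separate y axis starting at 0 for each gene. The groups are wild-type normoxia and hypoxia and gcn2 knockout normoxia and hypoxia; pmaip1, hmox1a, hamp, g0s2, hsp70l, bzw1b and ak3 are highest in hypoxic knockout larvae, whereas slc4a1a is highest in hypoxic wild-type larvae.

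Many lists held more such genes than the background of 4.74% and 4.50%, so the lists described here are examples. Others were pyruvate dehydrogenase and its kinases (4 of 13 more positive) and haem synthesis (6 of 23), neither with a more negative gene. Without 1 library these counts ran from 1 to 4 and from 0 to 7. After TPM scaling they were 2 and 3, with 1 more negative gene in haem synthesis. Better expressed genes also passed more often, 2081 of 11982 with a filter of FPKM at least 5. After TPM scaling, 2149 of 21480 genes passed for the difference. Their split by direction is not given here, so the TPM counts of these lists have no background for each direction. Collagens had a more negative response in the knockout in 18 of 55 genes and a more positive one in none (11 to 21 without 1 library, 27 after TPM scaling); col9a1b differed by -1.28, col2a1a by -0.78 ± 0.13 and col11a2 by -0.83 ± 0.13, and wild-type larvae held 308, 408 and 322 FPKM of col2a1a in hypoxia. In the list of neuronal and synaptic genes, 15 of 67 were more negative (2 to 21 without 1 library) and 2 more positive. The more negative ones were led by the glutamate transporter slc1a2b (-1.14, adjusted p = 0.0238) and by syn1 (-0.90 ± 0.24, passing in 4 of the 12 fits without 1 library). The gene elavl3, for a pan-neuronal RNA-binding protein, stood at -0.76.

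The knockout response was more positive in 12 of 45 autophagy genes (wipi2 by 0.63, sqstm1 by 0.55), in 11 of 41 genes of cell death and growth arrest, in 8 of 39 heat shock chaperones and in 8 of 26 glucocorticoid genes, with none, none, none and 1 more negative. These counts ran from 6 to 13, 3 to 11, 6 to 9 and 4 to 11 without 1 library, and were 9, 4, 7 and 8 after TPM scaling. For the nuclear respiratory chain the count was 28 of 84 more positive and none more negative, but it ran from 4 to 59 when each library was left out in turn and was 11 after TPM scaling. Mitochondrial genome genes had no member that passed. DNA replication had 2 of 59 genes with a more negative knockout response (tk1 and mcm7) and the exocrine pancreas none of 20, which with 3 libraries a group does not show that the responses were alike.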

How the data were processed

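Polyadenylated RNA from whole larvae was sequenced, and 1 table of FPKM per gene was deposited. The authors processed reads with fastp, HISAT2 2.2.1 and featureCounts 2.0.6 on GRCz11, per the submitters' processing notes, whose roles and settings are not given there. Low FPKM values are whole multiples of 1 read (all within 0.05 of a read), which gave the reads per library. Gene symbols written in capitals in the table were matched to zebrafish symbols where possible. The match used the symbol, the gene description with its copy letter and the chromosome, and for a few genes the full name, but not the gene ID. It gave 11134 symbols, while 1452 kept their capitals, so which copy of a duplicated gene a row holds rests on its description.

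Values were tested as log2(FPKM + 1) with limma 3.58.1 in R 4.3.3, with a variance trend, the 4 groups of 3 libraries in 1 fit, and Benjamini-Hochberg adjustment over 21480 genes. The code was tested on simulated data. Tables and figures used Python 3.11.15, pandas 2.3.3, numpy 2.4.6 and matplotlib 3.10.9. Alternatives were another pseudocount, other filters, TPM and median ratio scaling, voom on the recovered reads, a replicate term, the 6 knockout libraries alone and each library left out. The voom fit used the library totals that the FPKM imply, so it cannot check that scaling.

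The members and the 52 gene lists were chosen with earlier results of these data known. Genes named by rule were eif2ak4, the 10 largest rises and falls (past the threshold, at least 2 FPKM in the higher group, no overlap between groups), up to 2 members of each list under the same conditions, the 10 smallest p-values for the genotype difference, and a short list of known genes. Other examples were picked after their values were seen. Some named genes are not reported here.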

Additional observations from a re-analysis of the deposited data

Results flagged for a closer look

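Among the 130 named genes, 43 had a hypoxia response that differed between knockout and wild-type larvae (limma interaction, adjusted p under 0.05 over 21480 genes). Over all genes tested the share was 9.25%. Of the 43 genes, 10 were named for the smallest p-values of this same test, so their passing follows from the choice. Many others were named for large changes in knockout larvae. Values below are the knockout response minus the wild-type response on the log2(FPKM + 1) scale, for 3 libraries a group. Of the 43 genes, 22 passed in all 12 fits that left out 1 library, 38 after TPM scaling and 39 with voom. The 22 include the 10 genes named for their p-values.

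In metabolism, the difference was 1.3 for pdk2b, 0.85 for pdk2a, -0.53 for g6pc1a.1, 1.6 for gck, 1.02 for pgd, 0.89 for ak3 and -0.89 for gart. Among lipid genes it was 0.57 for insig1, 1.44 for g0s2, 0.78 for lpin1a and -0.81 for apoba, and -0.77 for cyp2aa9 of the P450 family. Glucokinase missed the threshold with voom (gck, adjusted p = 0.0507).

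Genes of cell death, stress and translation differed by 2.76 (pmaip1), 0.50 (mcl1b), 0.52 (bnip3lb), 0.49 (ppp1r15a), -0.50 (gcn1), 1.26 (bzw1b) and 0.46 (nfe2l2a). Heat shock chaperones differed by 1.57 (hsp70l), 1.6 (hsp70.1) and 0.97 (hsp90aa1.2), and the export factor derl3 of the endoplasmic reticulum by 0.66.

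Blood, haem and iron genes differed by -1.16 (hbae5), -0.35 (hbbe2), -0.79 (slc4a1a), 0.82 (slc25a38a), 0.41 (clpxa), 1.25 (hmox1a) and 1.44 (hamp). With voom, hbae5 missed the threshold (adjusted p = 0.129).

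The rest were 0.56 for ponzr4, 0.64 for fgg, -0.78 for col2a1a, -0.83 for col11a2, -0.90 for syn1, -0.77 for ACTC1, 1.57 for tat, 0.79 for igfbp6b, -0.61 for atp6ap1la, 0.30 for atp6v1b2, 0.88 for mmp9, 0.55 for mpeg1.2 and 0.39 for mpeg1.1. The least stable was mpeg1.1, which passed in 1 of the 12 fits without 1 library. It also missed the threshold after TPM scaling (adjusted p = 0.149) and with voom (0.0603). With voom, ponzr4 missed it as well (adjusted p = 0.0758). After TPM scaling, the calls of clpxa (adjusted p = 0.0563), derl3 (0.0781), mpeg1.2 (0.0683) and atp6v1b2 (0.149) were lost too.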

How the results depend on the processing

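The count of genes changed in knockout larvae was 6943 to 10026 over the other settings and 7967 to 9662 without 1 library (3980 to 4253 higher and 3983 to 4325 lower without 1 knockout library). The lowest count, 6943, came from the filter of FPKM at least 5, which left only 11982 genes to test. TPM scaling gave 2787 higher and 7239 lower, since it moved the median of all genes by -0.12; higher genes were 27.8% of the calls against 49.6%. The count of genes whose response differed between genotypes was less stable: 1230 with no filter, 3000 with voom on recovered reads, and 480 to 2839 without 1 library (480 and 655 without wild-type normoxia 1 and 3, 997 without wild-type hypoxia 2, 1040, 1085 and 557 without knockout normoxia 1, 2 and 3, 611 and 1242 without knockout hypoxia 1 and 2); the cause was not tested. Same-numbered libraries did not deviate together (r from -0.087 to 0.119 over 18 pairs, 1 over 0.1). This does not show whether they were collected in pairs, so the main fit had no replicate term. A replicate block gave 9319 changed genes (4621 higher, 4698 lower) and 1979 for the genotype difference. No named gene reversed. Under some setting, 6 lost their knockout call (hif1ab, rps27l, fabp6, ddit3, nr3c1 and ACTC1) and 3 gained a call (per1b, alas2 and hsp90aa1.2). With 3 libraries a group, small differences and genes near 1 FPKM are measured least well: 51 genes were tested only through the hypoxic knockout libraries, and 573 genes with 2 libraries at 1 FPKM lay just outside the filter.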
